A study of Mus musculus with 22 samples.

Results

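Fgf21, the gene of the hormone fibroblast growth factor 21, was examined together with Klb and Fgfr1, the genes of the co-receptor and the receptor through which that hormone acts. The 3 genes were taken by name from the 38924 genes measured in whole spinal cord, and Fgf21 was chosen by its CPM difference between E196K/E196K and WT libraries in these same data, while Klb and Fgfr1 were chosen as its receptor genes. All Fgf21 values below are therefore a description without a test, whereas Klb and Fgfr1 were tested in a model of all genes.

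The libraries came from mice aged 7 months on a mixed B6N;B6J background. There were 10 libraries from mice homozygous for the Yars E196K change (E196K/E196K), 6 from heterozygous mice (E196K/+) and 6 from WT mice. Yars encodes the cytoplasmic enzyme that joins tyrosine to its tRNA. The labels gave neither sex nor a statement that each library was a separate mouse, and whole tissue was sequenced, so fewer cells of a type and less RNA per cell cannot be told apart in any value.

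FGF21 belongs to the endocrine branch of the fibroblast growth factors, which bind heparan sulfate weakly and so can leave the tissue that makes them. Liver, fat, muscle and pancreas are its known sources, and its transcription is known to rise under amino acid shortage and mitochondrial stress through the factor ATF4, and during fasting through PPAR alpha. The hormone binds beta-Klotho, the product of Klb, and a tyrosine kinase receptor, mostly FGFR1, and the complex signals through FRS2 and the ERK kinases. Klb is transcribed in liver, fat, pancreas and a few sets of neurons, and Fgfr1 in most tissues.

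The bases before the start of Fgf21 are shown because they hold the site type through which ATF4 is known to act on this gene. The sequence was taken from RefSeq (GRCm38.p6, chr7:45615491-45615740, minus strand) and covers the 250 bases before the start, with a match to the core of a C/EBP-ATF response element in capitals:

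Fgf21 promoter: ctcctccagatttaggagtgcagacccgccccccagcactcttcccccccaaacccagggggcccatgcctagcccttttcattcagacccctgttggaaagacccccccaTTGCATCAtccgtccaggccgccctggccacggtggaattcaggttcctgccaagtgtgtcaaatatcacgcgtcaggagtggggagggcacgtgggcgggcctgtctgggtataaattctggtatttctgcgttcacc

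Windows from 250 bases before to 50 after a start were searched on both strands for TGATGNAA, the response element core, and the match in Fgf21 was on the strand opposite to the gene, 139 to 132 bases before the start. Of 32851 RefSeq windows, 3.97% held this motif. An E-box, CACGTG, lay 50 to 45 bases before the start of Fgf21 (7.15% of windows), and the TATA motif TATAAA lay 28 to 23 bases before it (13.6% of windows). Neither the cyclic AMP element TGACGTCA (1.79% of windows) nor the DR1 motif (0.0396% of windows), 2 copies of AGGTCA that are 1 base apart and a form of PPAR element, was in the Fgf21 window, and none of these motifs overlapped another there. The window of Klb (chr5:65348161-65348460, plus strand) had no match to any of the motifs. Of the 15 genes called higher in E196K/E196K than in WT, 13 had a window, and besides Fgf21 the response element core was in that of Chac1, an enzyme of glutathione breakdown, which was named after its match was seen. The windows of Stbd1, Slc7a1, Acsl5 and Atf4, also called higher, had no match to it. Without Fgf21, 1 of 12 called genes with a window held the core (8.33%), beside 347 of 12408 tested genes with a window (2.80%). The sites are shown side by side with the core in capitals, at chr7:45615622-45615629 (minus strand) for Fgf21 and chr2:119351049-119351056 (plus strand) for Chac1, with the Chac1 site 193 to 186 bases before its start:

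Fgf21: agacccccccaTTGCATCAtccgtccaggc
Chac1: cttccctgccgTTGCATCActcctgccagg

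The capitals are the same letters in both sites, which the search itself fixed at every place but that of the N. A match of letters is not evidence that a factor was bound in these cords.

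Fgf21 (ENSMUSG00000030827, chr7:45613886-45615490 on GRCm38, minus strand) was read in every E196K/E196K library and in no WT library. The E196K/E196K libraries held at least 61 counts each, a median of 104.5 and 1108 in all. The 6 E196K/+ libraries held 4, 2, 2, 0, 0 and 4 counts, 12 in all, and the 6 WT libraries held 0 each. The genotypes were ordered without overlap between E196K/E196K and the others, while E196K/+ overlapped WT through its 2 libraries at 0.

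Levels are given as CPM, counts divided by the scaled total of all tested genes in the library. Fgf21 averaged 3.34 CPM in E196K/E196K (SD 1.17, n = 10), with a lowest value of 1.85, a median of 3.10 and a highest of 5.35. In E196K/+ it averaged 0.0671 CPM (SD 0.0645, n = 6), with values from 0 to 0.163. In WT no count was found among 200.7 M scaled counts, which allows a group level of up to 0.0149 CPM at 3 counts over the group. Set against that WT floor, the observed E196K/E196K level was 225-fold the floor, and the observed E196K/+ level, from 12 counts, was 4.22-fold the floor. Between E196K/E196K and E196K/+ the ratio of summed counts was 53.3 (exact binomial 95% interval 30.4 to 103). The interval covers counting error only. The ratios to the floor leave out the counting error of E196K/E196K and E196K/+ and are not lower bounds. Fgf21 passed the filter on low counts through the E196K/E196K libraries alone, so it had to differ once it was kept.

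In this comparison of E196K/E196K with WT, 0.0943% of 16974 genes passed an adjusted p below 0.05 and 0.118% had all E196K/E196K libraries above all WT libraries. Fgf21 was in both shares, which is how it was chosen. In E196K/E196K against E196K/+, 0.106% of genes passed and 0.124% were higher without overlap. In E196K/+ against WT no gene passed the edgeR test at the adjusted threshold, nor under any of the 32 alternative fits, and 578 genes (3.41%) had an unadjusted p below 0.05.

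**Figure D1:**
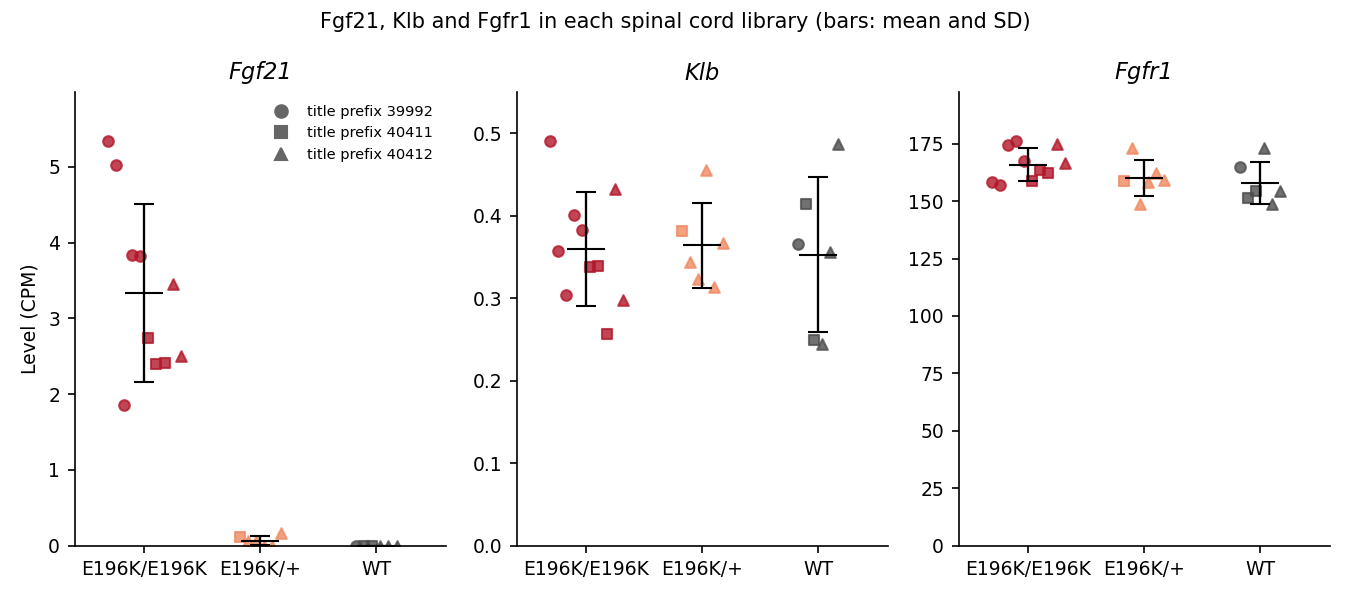
Level of Fgf21, Klb and Fgfr1 in each library (CPM, 1 panel per gene with its own scale from 0), by genotype, with the marker shape giving the number that begins the library's title; bars are the mean and SD. Fgf21 lies between 1.85 and 5.35 CPM in E196K/E196K and at or near 0 elsewhere, while Klb and Fgfr1 overlap between all genotypes.

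Among the E196K/E196K libraries the coefficient of variation of Fgf21 was 35.1%, where counting alone would give 9.57%. The spread between libraries was thus well above counting error. The highest library was 2.88-fold above the lowest. The highest levels, 5.35 and 5.03 CPM, were in E196K/E196K libraries 1 and 2, and the lowest, 1.85 CPM, was in library 3. The library titles begin with 39992, 40411 or 40412, numbers that the labels do not explain. By that number Fgf21 averaged 3.98 CPM in E196K/E196K libraries of 39992 (SD 1.37, n = 5), 2.52 CPM in those of 40411 (SD 0.194, n = 3) and 2.98 CPM in those of 40412 (SD 0.678, n = 2). The WT libraries were at 0 under each number (1, 2 and 3 libraries), and the E196K/+ libraries averaged 0.117 CPM in 40411 (n = 1) and 0.0570 CPM in 40412 (n = 5).

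E196K/E196K library 3 stood apart in its cell type markers. The summed level of 5 Schwann cell markers was 2262 CPM there and at most 4.35 CPM in any other library. Its fibroblast markers summed to 475 CPM (at most 64.4 CPM elsewhere), its blood markers to 2172 CPM (at most 1040 CPM) and its skeletal muscle markers to 18.4 CPM (at most 3.21 CPM). Fgf21 was lowest in this library, and without it the E196K/E196K mean was 3.51 CPM. The part of the additional cells in that value was not tested. All 7 neuron, 5 astrocyte and 5 oligodendrocyte markers were read in each genotype, as the label of spinal cord requires.

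Markers of the tissues known to make FGF21 were read at various levels. Of 6 hepatocyte markers, Fgb was at 0 in every library and Alb was at most 0.0770 CPM in any E196K/E196K library, 0.0804 CPM in any E196K/+ library and 0.115 CPM in any WT library. The hepatocyte sum ranged from 0.238 to 1.08 CPM in E196K/E196K, from 0.383 to 0.978 CPM in E196K/+ and from 0.356 to 1.07 CPM in WT. Of 6 adipocyte markers, Adipoq was at most 0.304, 0.0815 and 0.0348 CPM in E196K/E196K, E196K/+ and WT libraries, and Lep at most 0.0304, 0.0647 and 0 CPM. The adipocyte sum, 17.4 to 52.4 CPM in E196K/E196K, 8.33 to 30.9 CPM in E196K/+ and 15.5 to 42.1 CPM in WT, came almost wholly from Plin4, which other cells also transcribe. Of 6 pancreas markers, Ins1, Prss1 and Cpa1 were at 0 in every library, and Cela1 made most of a sum of 2.68 to 6.77 CPM in E196K/E196K, 4.46 to 6.32 CPM in E196K/+ and 4.11 to 6.32 CPM in WT. All 8 skeletal muscle markers were read in each genotype, with sums of 1.49 to 18.4 CPM in E196K/E196K (at most 3.21 CPM without library 3), 1.74 to 2.58 CPM in E196K/+ and 1.36 to 2.84 CPM in WT. The part of these tissues in the Fgf21 values was not tested. Which cells of the cord held the Fgf21 transcript was not tested.

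Klb (ENSMUSG00000029195, chr5:65348314-65384007, plus strand), without whose product FGF21 does not signal, was read at a low level in all 22 libraries. It averaged 0.360 CPM in E196K/E196K (SD 0.0693, n = 10; lowest 0.257, median 0.348, highest 0.491), 0.364 CPM in E196K/+ (SD 0.0516, n = 6; lowest 0.314, median 0.355, highest 0.456) and 0.353 CPM in WT (SD 0.0943, n = 6; lowest 0.245, median 0.361, highest 0.487). These levels rest on 8 to 18 counts per library in E196K/E196K, 9 to 17 in E196K/+ and 8 to 18 in WT, and the groups overlapped almost entirely. The spread between libraries, 19.2%, 14.2% and 26.7% of the mean, was within the 29.1%, 29.6% and 29.3% that counting alone would give.

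No difference in Klb was detectable at this depth. The log2 fold change was 0.03 in E196K/E196K against WT (SE 0.228, 95% interval -0.44 to 0.50, edgeR adjusted p = 0.984). It was 0.05 in E196K/+ against WT (SE 0.223, interval -0.41 to 0.51, edgeR adjusted p = 1.00) and -0.02 in E196K/E196K against E196K/+ (SE 0.181, interval -0.39 to 0.35, edgeR adjusted p = 0.981). The sign turned in E196K/E196K against WT without E196K/E196K library 1 or 9 or WT library 3 or 4 (to -0.06 at most), in E196K/+ against WT without E196K/+ library 4 or WT library 3 or 4 (to -0.04 at most) and in E196K/E196K against E196K/+ without E196K/E196K library 3, 8 or 10 or E196K/+ library 4 (to 0.06 at most).

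Fgfr1 (ENSMUSG00000031565, chr8:25513654-25575718, plus strand), the receptor kinase, was read deeply in every library. It averaged 166 CPM in E196K/E196K (SD 7.28, n = 10; lowest 157, median 165, highest 176), 160 CPM in E196K/+ (SD 7.91, n = 6; lowest 149, median 159, highest 173) and 158 CPM in WT (SD 9.29, n = 6; lowest 149, median 154, highest 173). The 3 groups overlapped over most of their range. The log2 fold change was 0.07 in E196K/E196K against WT (SE 0.0364, 95% interval -0.00359 to 0.147, unadjusted p = 0.0611, edgeR adjusted p = 0.815). It was 0.02 in E196K/+ against WT (SE 0.0407, interval -0.06 to 0.10, edgeR adjusted p = 1.00) and 0.05 in E196K/E196K against E196K/+ (SE 0.0364, interval -0.02 to 0.13, edgeR adjusted p = 0.707). Without E196K/+ library 2 the value for E196K/+ against WT was -0.00406. Within the title numbers the E196K/E196K mean stood 0.02, 0.08 and 0.10 above the WT mean on the log2 scale in 39992, 40411 and 40412. With 3901 to 6589 counts per library, counting was not the limit here, since the spread between libraries was 4.39% of the mean in E196K/E196K, 4.94% in E196K/+ and 5.88% in WT against 1.36%, 1.41% and 1.39% from counting. An antisense gene, Gm16159, lies within Fgfr1, and the strand setting of the counting is not given in the sources used here, so reads of the 2 cannot be told apart.

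Levels of different genes were compared as TPM, which the deposited files scale by transcript length. Fgfr1 averaged 81.0 TPM in E196K/E196K (SD 5.91), 80.1 TPM in E196K/+ (SD 7.15) and 75.8 TPM in WT (SD 6.12), above 92.2%, 91.6% and 91.6% of the genes with any TPM. Klb averaged 0.194 TPM in E196K/E196K (SD 0.0337), 0.197 TPM in E196K/+ (SD 0.0288) and 0.187 TPM in WT (SD 0.0489), above 25.4%, 22.9% and 22.9% of them. Fgf21 averaged 8.58 TPM in E196K/E196K (SD 2.81), above 59.5% of the genes with any TPM, 0.175 TPM in E196K/+ (SD 0.167), above 21.9%, and was listed at 0 in WT. In E196K/E196K cords the hormone's transcript was thus the more abundant by far of the pair Fgf21 and Klb, per length.

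Among the 8 FGF receptor and co-receptor genes, the order by mean TPM was Fgfr3, Fgfr2, Fgfr1, the decoy-like receptor Fgfrl1, Kl, Lctl, Fgfr4 and Klb in all 3 genotypes. Fgfr3, a receptor of astrocytes in the cord, was at 137 TPM in E196K/E196K (SD 9.22), 130 TPM in E196K/+ (SD 9.61) and 123 TPM in WT (SD 18.3). Fgfr2, a receptor of oligodendrocytes and astrocytes, was at 89.6 TPM in E196K/E196K (SD 9.83), 102 TPM in E196K/+ (SD 8.97) and 95.6 TPM in WT (SD 15.5), so that Fgfr2 and Fgfr1 lay within an SD of each other in E196K/E196K and not in E196K/+ or WT. Fgfr4, which pairs with beta-Klotho in the liver, was at 0.319 TPM in E196K/E196K (SD 0.152), 0.472 TPM in E196K/+ (SD 0.282) and 0.298 TPM in WT (SD 0.132), and its libraries overlapped those of Klb in TPM in E196K/E196K and WT but not in E196K/+. Kl, the co-receptor of the hormone FGF23, was at 2.08 TPM in E196K/E196K (SD 0.213), 2.14 TPM in E196K/+ (SD 0.304) and 2.07 TPM in WT (SD 0.115). Fgfrl1, which binds FGFs but has no kinase, was at 19.7 TPM in E196K/E196K (SD 1.51), 23.1 TPM in E196K/+ (SD 3.83) and 20.7 TPM in WT (SD 3.85).

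None of the 8 receptor and co-receptor genes passed the test in any of the 3 comparisons, where at most 0.106% of all genes did. Against WT, 4 of 8 were higher in E196K/E196K and the median log2 fold change was 0.00, beside 53.7% higher and a median of 0.01 over all genes tested. The largest was Lctl, a Klotho relative of unsettled function, at 0.92 (SE 0.574, edgeR adjusted p = 0.815), and it came with E196K/E196K library 3, which held 191 Lctl counts and 5.81 CPM where the other 9 libraries of the genotype ranged from 0.201 to 1.03 CPM. The count in E196K/+ against WT was 7 of 8, with a median of 0.05, beside 51.9% and 0.00 over all genes. Against E196K/+, 3 of 8 were higher in E196K/E196K with a median of -0.03, and 3 had an unadjusted p below 0.05, namely Fgfrl1 (-0.22, SE 0.0865, edgeR adjusted p = 0.462), Fgfr2 (-0.20, SE 0.0788, edgeR adjusted p = 0.468) and Lctl (1.43, SE 0.611, edgeR adjusted p = 0.515), where 8.8% of all genes did.

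**Figure D2:**
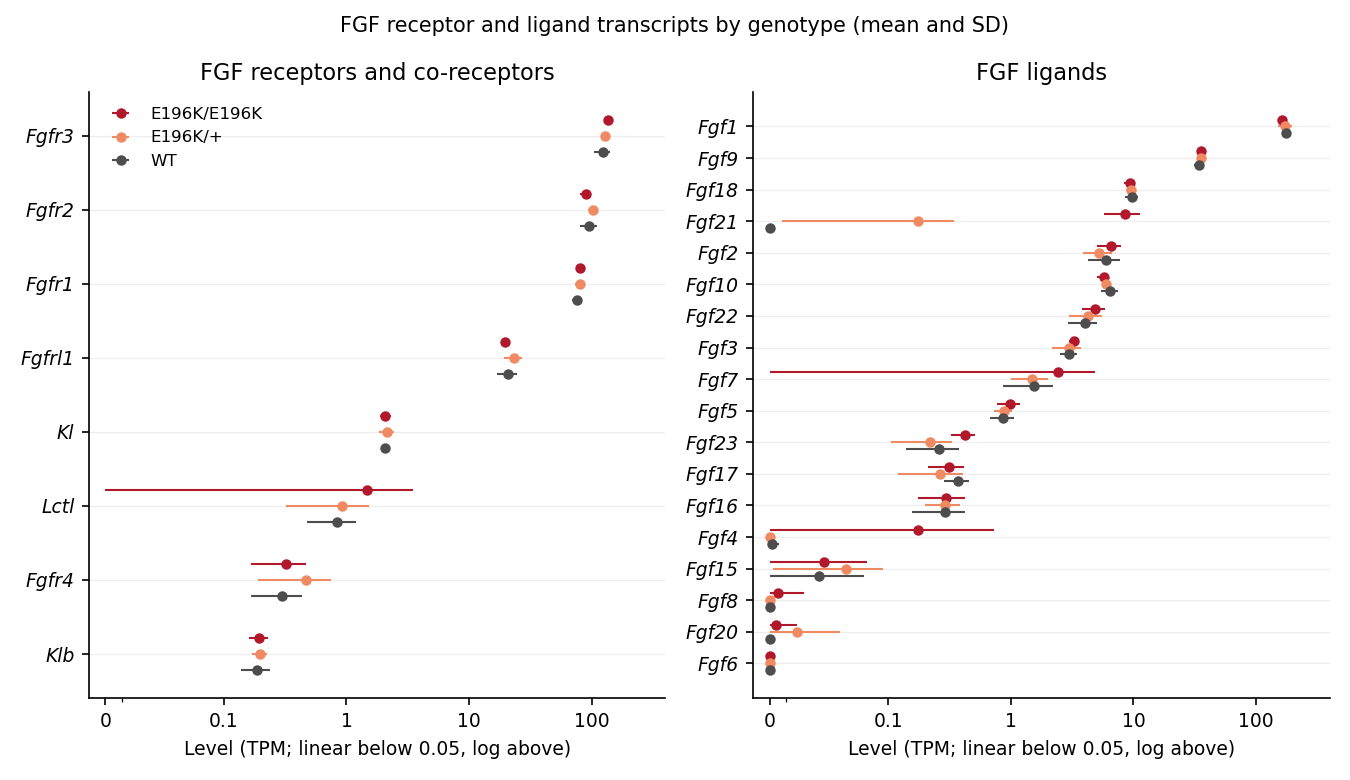
Mean TPM and SD of 8 FGF receptor and co-receptor genes (left) and 18 FGF ligand genes (right) by genotype, ordered by the E196K/E196K mean, on an axis that is linear below 0.05 TPM and logarithmic above; an SD larger than its mean is drawn down to 0. Fgf21 stands at 8.58 TPM in E196K/E196K against 0.175 TPM in E196K/+ and 0 in WT, while the 3 genotypes lie close together for Fgfr1 and Klb.

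Fgf21 moved through the order of the 18 FGF ligand genes. In E196K/E196K it was 4 of 18 by mean TPM, below Fgf1 at 164 TPM (SD 9.34), the neuronal growth factor Fgf9 at 35.4 TPM (SD 2.32) and Fgf18 at 9.34 TPM (SD 0.891), and Fgf18 and Fgf21 lay within an SD of each other, as did Fgf21 and the next gene, Fgf2. In E196K/+ it was 13 of 18 and in WT it was listed at 0. Fgf21 was thus among the more abundant FGF transcripts of the E196K/E196K cord, though far below Fgf1.

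The other 2 endocrine FGFs were scarce in every genotype. Fgf15, the gut hormone that acts through Fgfr4 and Klb on bile acid synthesis, had 9 counts in all in E196K/E196K, 7 in E196K/+ and 5 in WT, at most 2 in a library, and was not tested. Fgf23, the phosphate hormone of bone, had 7 to 17 counts per library in E196K/E196K, 3 to 15 in E196K/+ and 2 to 11 in WT. It averaged 0.376 CPM in E196K/E196K (SD 0.0839, n = 10), 0.198 CPM in E196K/+ (SD 0.106, n = 6) and 0.237 CPM in WT (SD 0.114, n = 6), and the groups overlapped. The log2 fold change of Fgf23 was 0.68 in E196K/E196K against WT (SE 0.284, edgeR adjusted p = 0.815) and 0.89 in E196K/E196K against E196K/+ (SE 0.294, edgeR adjusted p = 0.340), short of the threshold in both.

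Of the 17 ligand genes other than Fgf21, 11 could be tested, and none passed in any comparison, where at most 0.106% of all genes did. Against WT, 7 of 11 were higher in E196K/E196K, with a median log2 fold change of 0.03, beside 53.7% and 0.01 over all genes. An unadjusted p below 0.05 was found for 3 of 11 (27.3%), beside 5.91% of all genes. Fgf1, a growth factor abundant in motor neurons, had the smallest p. It averaged 249 CPM in E196K/E196K (SD 14.1, n = 10; lowest 218, highest 270), 271 CPM in E196K/+ (SD 6.09, n = 6; lowest 264, highest 278) and 276 CPM in WT (SD 9.62, n = 6; lowest 265, highest 288), and the E196K/E196K and WT ranges overlapped slightly. Its log2 fold change in E196K/E196K against WT was -0.15 (SE 0.0337, edgeR adjusted p = 0.109), with adjusted p-values from 0.00912 to 0.731 over the alternatives, and it passed with DESeq2, with the Xist level as a covariate and without E196K/E196K library 5 (adjusted p = 0.0326). Next came Fgf23 and then Fgf10 (-0.21, SE 0.0903, edgeR adjusted p = 0.815). Of the 11, 1 was higher in E196K/+ against WT, with a median of -0.04, beside 51.9% and 0.00 over all genes. In E196K/E196K against E196K/+, 8 of 11 were higher, with a median of 0.18, beside 53.0% and 0.00 over all genes. There 2 of 11 had an unadjusted p below 0.05 (18.2%), beside 8.8% of all genes. Fgf4, a growth factor of early embryos, had 88 counts in E196K/E196K library 3 and 0 or 1 in each other library. Of the 4 intracellular FGF homologous factors, which act on sodium channels and not on FGF receptors, 1 of 4 was higher in E196K/E196K than in WT and none passed (Fgf14 at -0.08, SE 0.0507, and Fgf12 at -0.05, SE 0.0854).

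The genes that carry the signal of an FGF receptor into the cell were near their WT levels. Of 23 relay genes, 12 were higher in E196K/E196K than in WT, beside 53.7% of all genes. The median log2 fold change was 0.01, as over all genes. None passed, where 0.0943% of all genes did. An unadjusted p below 0.05 was found for 3 of 23 (13.0%), beside 5.91% of all genes. The smallest p-values were those of the GTPase Nras (-0.13, SE 0.0496, edgeR adjusted p = 0.815) and the kinase Akt1 (0.07, SE 0.0296, edgeR adjusted p = 0.815). The count was 17 of 23 in E196K/+ against WT, and in E196K/E196K against E196K/+ 10 of 23 were higher, with none passing. Over all genes, 51.9% and 53.0% were higher in these comparisons.

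The feedback inhibitors and ERK targets are genes whose transcription is known to follow FGF receptor activity in many tissues. Against WT, 14 of 20 were higher in E196K/E196K, none passed, and the median log2 fold change was 0.04, beside 53.7% and 0.01 over all genes. Of all genes 0.0943% passed. Spry4, an inhibitor of receptor kinase signalling, averaged 24.1 CPM in E196K/E196K (SD 3.95), 27.4 CPM in E196K/+ (SD 3.41) and 23.4 CPM in WT (SD 2.68), with a log2 fold change over WT in E196K/E196K of 0.04 (SE 0.10, edgeR adjusted p = 0.944). Dusp6, the phosphatase that switches off ERK, averaged 18.4 CPM in E196K/E196K (SD 2.22), 19.6 CPM in E196K/+ (SD 3.11) and 19.0 CPM in WT (SD 4.86), with a fold change of -0.05 (SE 0.122, edgeR adjusted p = 0.945). The ETS factor Etv5 averaged 60.6 CPM in E196K/E196K (SD 4.66), 56.0 CPM in E196K/+ (SD 2.75) and 58.9 CPM in WT (SD 7.71), with a fold change of 0.04 (SE 0.0616, edgeR adjusted p = 0.900). The smallest p-values of the list in this comparison were those of the phosphatase Dusp5 (0.30, SE 0.101, edgeR adjusted p = 0.646) and the immediate early gene Ier2 (0.21, SE 0.103, edgeR adjusted p = 0.815).

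Of the 20 feedback and target genes, 15 were higher in E196K/+ than in WT with a median of 0.07, beside 51.9% and 0.00 over all genes. In that comparison 4 had an unadjusted p below 0.05, where 3.41% of all genes did. In E196K/E196K against E196K/+, 5 of 20 were higher with a median of -0.07, beside 53.0% and 0.00 over all genes. There 4 of 20 had an unadjusted p below 0.05, where 8.8% of all genes did. None passed in either comparison, where at most 0.106% of all genes did. The immediate early genes Egr1 and Fos, named here after their values were seen, had log2 fold changes of 0.64 (SE 0.216) and 0.79 (SE 0.248) in E196K/+ against WT and of 0.05 (SE 0.195) and 0.12 (SE 0.225) in E196K/E196K against WT.

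The extracellular partners of FGFs include the heparan sulfate carriers and the protease Fap, which cuts FGF21 in the blood. Of 22 such genes 21 could be tested, and 14 of 21 were higher in E196K/E196K than in WT, with a median log2 fold change of 0.01 and none passing. Over all genes, 53.7% were higher with a median of 0.01, and 0.0943% passed. The extracellular genes with the smallest p were the proteoglycan Gpc1 (0.13, SE 0.0463, edgeR adjusted p = 0.777) and Ext2, an enzyme that builds heparan sulfate chains (0.10, SE 0.0513, edgeR adjusted p = 0.815). Over the 6 lists of receptors, ligands, intracellular factors, relay, feedback and extracellular genes together, without Fgf21, 87 of 94 genes could be tested, 52 of 87 were higher in E196K/E196K than in WT, 0 passed in edgeR, 8 had an unadjusted p below 0.05 (9.20%, beside 5.91% of all genes) and the median was 0.01.

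**Figure D3:**
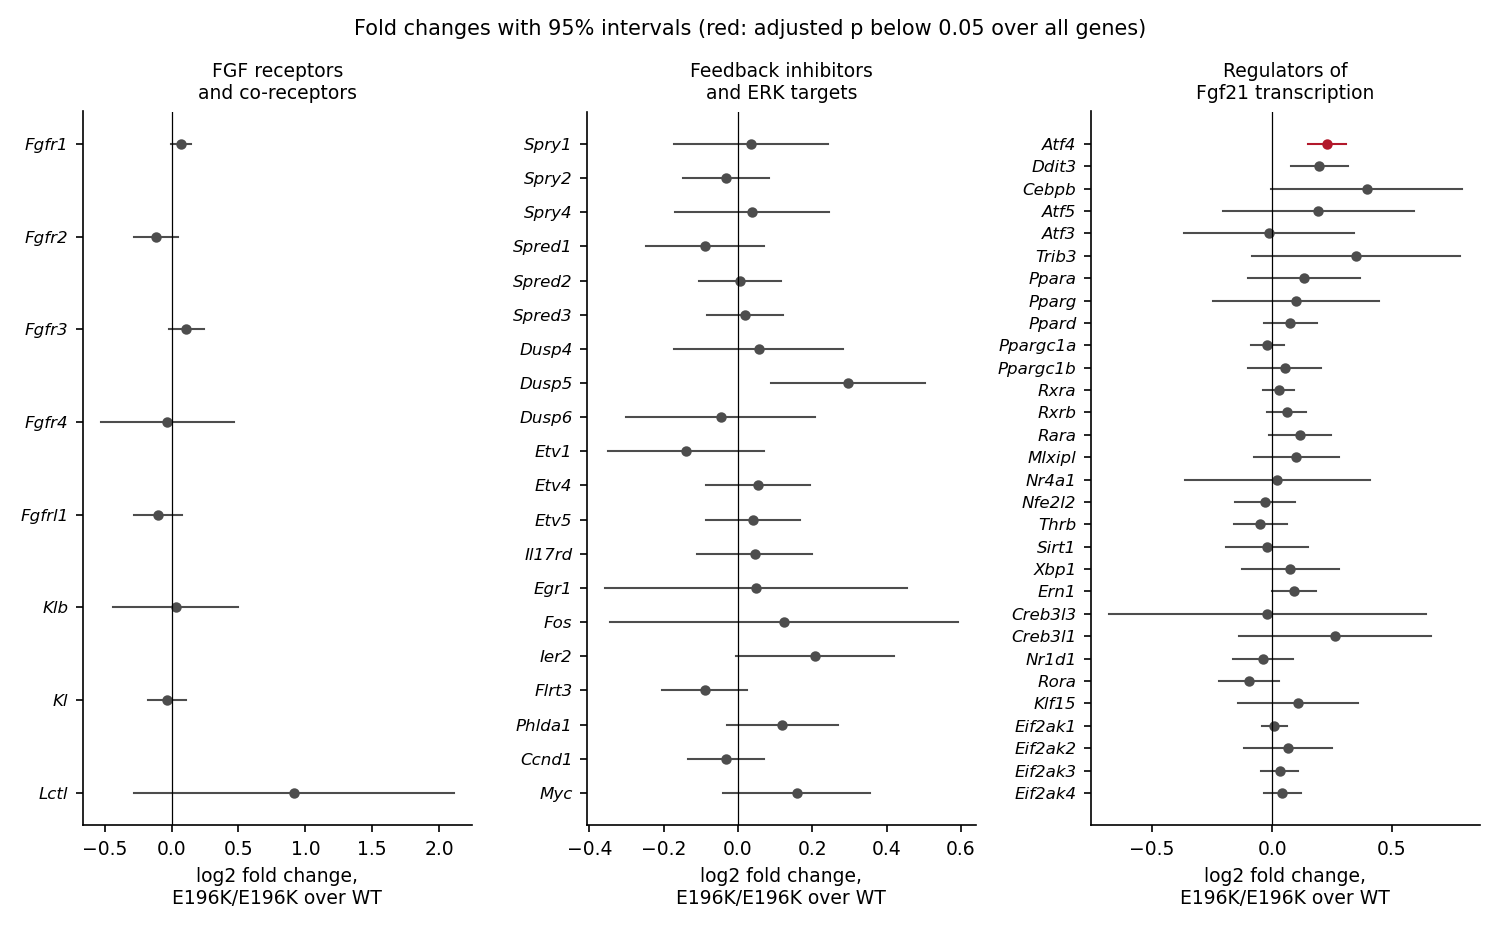
Log2 fold change of E196K/E196K over WT with its 95% interval for FGF receptor and co-receptor genes (left), feedback inhibitors and ERK targets (middle) and regulators of Fgf21 transcription (right); the horizontal scales differ and red marks an adjusted p below 0.05 over all genes. Among the genes drawn, Atf4 at 0.23 is the one in red.

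Genes reported to respond to FGF21 in fat, liver or brain had no member past the test either. At most 0.106% of all genes passed in any comparison. Of 22 such genes 14 could be tested, so a count of 0 is near that share. Of the 14, 8 were higher in E196K/E196K than in WT, beside 53.7% of all genes. Their median log2 fold change was 0.00, beside 0.01 over all genes. Those with the smallest p were Pdk4, which limits glucose oxidation, at 17.2 CPM in E196K/E196K (SD 3.33), 18.3 CPM in E196K/+ (SD 2.38) and 20.0 CPM in WT (SD 5.58), with a fold change over WT in E196K/E196K of -0.22 (SE 0.142, edgeR adjusted p = 0.817), and Slc2a1, the glucose carrier that FGF21 induces in fat cells, at 162 CPM in E196K/E196K (SD 20.7), 155 CPM in E196K/+ (SD 11.9) and 150 CPM in WT (SD 10.1), with a fold change of 0.10 (SE 0.0734, edgeR adjusted p = 0.819).

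Of 30 genes listed as direct or upstream regulators of Fgf21 transcription, 22 were higher in E196K/E196K than in WT. Their median log2 fold change was 0.06, and 1 passed, Atf4. Over all genes tested in that comparison, 53.7% were higher with a median of 0.01, and 0.0884% were called higher. The list does not separate genes that raise Fgf21 from any that lower it, so the count has no direction for Fgf21. Atf4 averaged 90.6 CPM in E196K/E196K (SD 5.36, n = 10; lowest 81.8, highest 97.8), 85.5 CPM in E196K/+ (SD 3.86, n = 6; lowest 79.1, highest 89.5) and 77.3 CPM in WT (SD 2.98, n = 6; lowest 74.3, highest 82.8), and the E196K/E196K and WT ranges overlapped slightly. Its log2 fold change over WT was 0.23 in E196K/E196K (SE 0.0383, edgeR adjusted p = 0.00461) and 0.15 in E196K/+ (SE 0.0425, unadjusted p = 0.00221, edgeR adjusted p = 1.00). Fgf21 was chosen by its difference in this comparison, so its size is not set against that of Atf4. The part of Atf4 in the Fgf21 values was not tested. ATF4 is known to be controlled mostly at translation, which these data do not measure.

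The other named regulators did not pass. Ddit3, the stress factor CHOP, averaged 15.5 CPM in E196K/E196K (SD 1.33), 14.7 CPM in E196K/+ (SD 1.09) and 13.6 CPM in WT (SD 0.994), a log2 fold change of 0.20 in E196K/E196K against WT (SE 0.0576, edgeR adjusted p = 0.547). Ppara, the fasting receptor of the liver, averaged 3.25 CPM in E196K/E196K (SD 0.510), 3.31 CPM in E196K/+ (SD 0.526) and 2.96 CPM in WT (SD 0.353), a fold change of 0.13 (SE 0.113, edgeR adjusted p = 0.826). Ppargc1a, a coactivator of mitochondrial genes, averaged 61.7 CPM in E196K/E196K (SD 2.54), 59.3 CPM in E196K/+ (SD 2.17) and 62.5 CPM in WT (SD 2.99), a fold change of -0.02 (SE 0.0330, edgeR adjusted p = 0.912). The count was 18 of the 30 in E196K/+ against WT, and in E196K/E196K against E196K/+ also 18 of the 30, with none passing. Over all genes, 51.9% and 53.0% were higher in these comparisons.

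The genes whose order of the 22 libraries lay nearest to that of Fgf21 were found by the mean difference in rank between the libraries, among 13487 tested genes with a mean of at least 1 CPM, for which the median difference was 7.32 places. They were Stbd1, which ties glycogen to membranes (2.18 places), Cars, the cysteinyl-tRNA synthetase (2.36 places), Slc7a1, a carrier of cationic amino acids (2.82 places), Acsl5, which activates fatty acids (2.86 places), and Rars, the arginyl-tRNA synthetase (2.91 places). Since Fgf21 separates E196K/E196K from the rest, such an order is largely an order of genotypes, and these genes were found by it. Stbd1 averaged 4.21 CPM in E196K/E196K (SD 1.06), 1.46 CPM in E196K/+ (SD 0.151) and 1.25 CPM in WT (SD 0.166). Cars averaged 44.4 CPM in E196K/E196K (SD 1.51), 40.4 CPM in E196K/+ (SD 1.72) and 38.8 CPM in WT (SD 1.16). Slc7a1 averaged 94.1 CPM in E196K/E196K (SD 6.40), 73.7 CPM in E196K/+ (SD 0.992) and 71.2 CPM in WT (SD 3.08). Acsl5 and Rars differed less between genotypes, with 37.5 and 41.0 CPM in E196K/E196K, 34.0 and 37.6 CPM in E196K/+, and 33.4 and 37.9 CPM in WT. Atf4 was at place 24 of this order, 3.73 places from Fgf21.

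**Figure D4:**
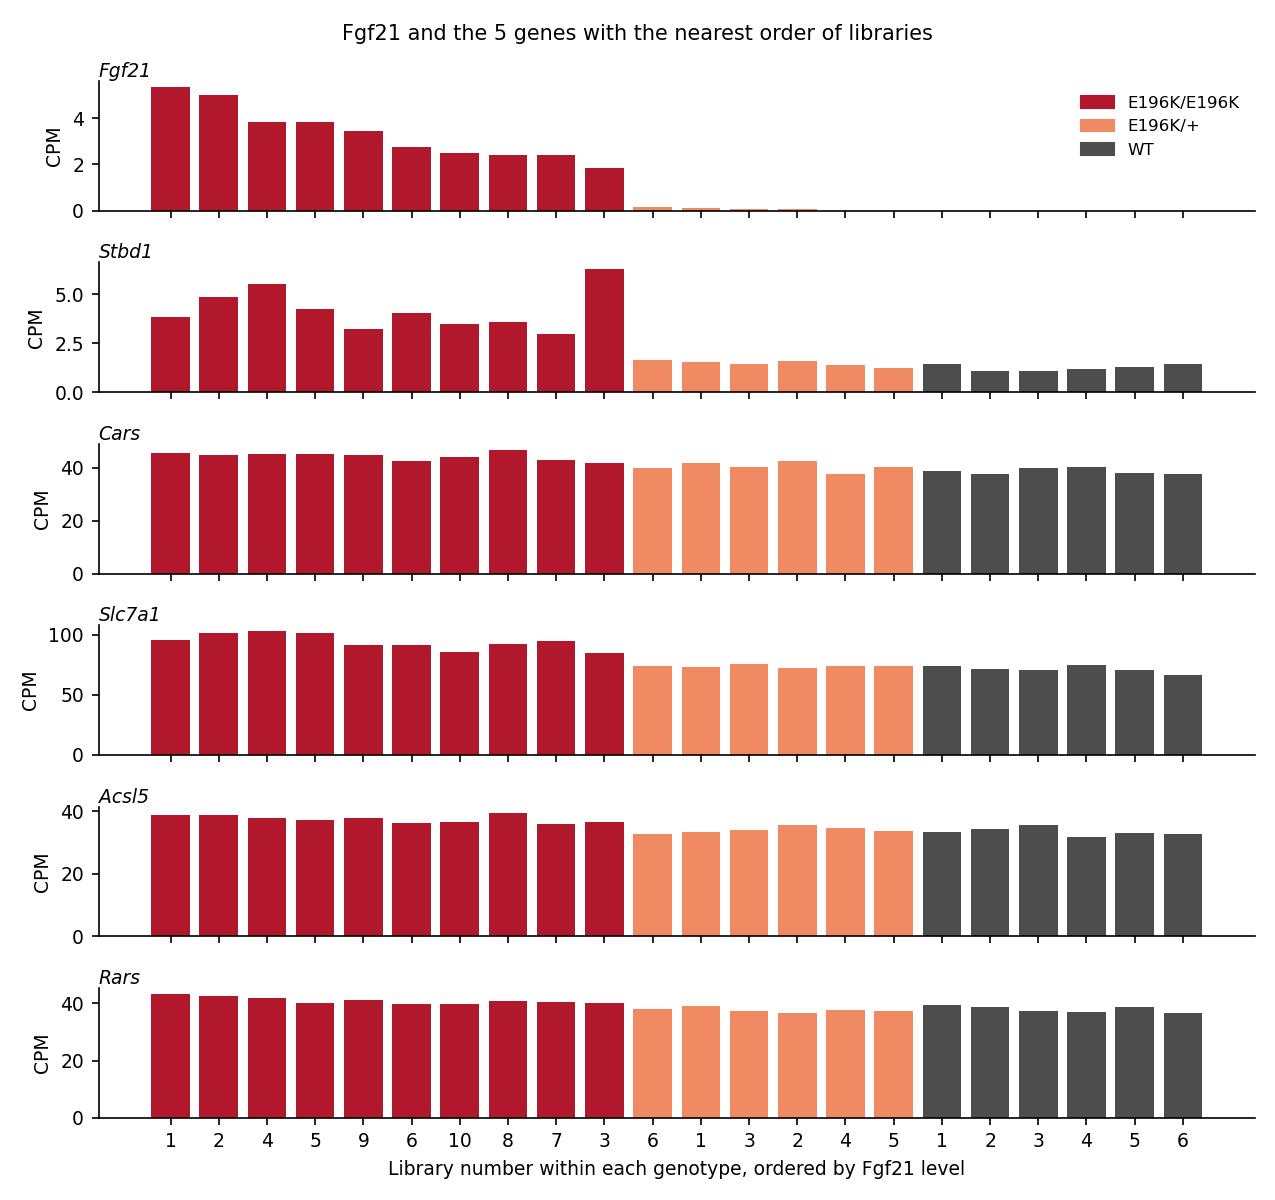
Level (CPM) in each of the 22 libraries of Fgf21 and of the 5 genes with the nearest order of libraries, with libraries arranged within each genotype by their Fgf21 level and numbered as in the text. Fgf21 is at 0.163 CPM or less in every E196K/+ and WT bar, whereas the bars of Cars, Acsl5 and Rars are of similar height throughout.

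Within the 10 E196K/E196K libraries alone the nearest genes were others. Among them were Exog, a mitochondrial nuclease, and Sptssb, a subunit of the enzyme that begins sphingolipid synthesis, each 0.4 places from Fgf21. Then came Fkbp3 and the protease Capn1, each 0.8 places from it, a distance that further genes not named here shared. The median gene was 3.2 places away. None of the 4 named genes differed between E196K/E196K and WT past the threshold (edgeR adjusted p-values from 0.528 to 1.00). Atf4, at 3.2 places, was no nearer than the median gene within E196K/E196K. With 10 libraries and 13487 genes, short distances are found for some genes in any order, and the list is a description of these libraries.

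For Klb the nearest genes over the 22 libraries were Stx18, Asb13 and Ly6c1, 3.45, 3.45 and 3.55 places away, where the median gene was 7.27 places away. At 8 to 18 counts per library the order of Klb is largely counting error. For Fgfr1 they were Plxna1, a receptor of semaphorins, at 1.64 places, and Chpf, an enzyme of chondroitin chains, and Dtx3, each at 2.09 places, where the median gene was 7.09 places away. Plxna1 averaged 125 CPM in E196K/E196K (SD 3.97), 121 CPM in E196K/+ (SD 5.77) and 120 CPM in WT (SD 7.23), and Chpf 75.0 CPM in E196K/E196K (SD 3.83), 71.6 CPM in E196K/+ (SD 5.26) and 66.5 CPM in WT (SD 7.98).

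Of 7 genes within 50 kb of Fgf21 on chromosome 7, 5 could be tested in E196K/E196K against WT, with log2 fold changes from -0.12 to 0.18, and 0 passed in edgeR, 0 having an unadjusted p below 0.05. They were Rasip1, Bcat2, Mamstr, Fut2 and Hsd17b14. The nearest gene, Fut1 (chr7:45617289-45621059, plus strand), a fucosyltransferase 1.80 kb from Fgf21 and read from the other strand, had too few counts for the filter. It held 2 to 14 counts per library in E196K/E196K, 76 in all, 0 to 3 in E196K/+, 10 in all, and 0 to 3 in WT, 11 in all. Its ratio of summed counts was 4.20 in E196K/E196K over WT (exact binomial 95% interval 2.22 to 8.77) and 4.39 in E196K/E196K over E196K/+ (2.26 to 9.52), intervals of counting error only. With no filter, a reading of Fut1 added after the data were seen, its log2 fold change was 1.95 in E196K/E196K against WT (SE 0.471). The edgeR p was 0.000288 unadjusted and 0.275 adjusted over 26779 genes. In E196K/E196K against E196K/+ the fold change was 2.03 (SE 0.480), with an edgeR p of 0.000224 unadjusted and 0.134 adjusted.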

How the data were processed

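PolyA-selected RNA of 22 spinal cord libraries was sequenced from stranded KAPA libraries, per the labels' protocols. Per the file headers, the authors deposited gene tables from RSEM. Its version 1.2.12, and Bowtie2 2.2.0, come from the submitters' processing notes. The build, the annotation and the strand setting of the counting were not given in the sources used here. Their deposited expected counts share reads among genes, and 14.41% to 16.23% of values per library were not whole. The deposited TPM, scaled by length to a fixed total, served to set levels of genes side by side and in alternative tests. The deposited FPKM was not used. Of 38924 gene IDs, 37607 had a symbol, and positions are GENCODE M21 (GRCm38). Expected counts of Fgf21 and Klb were whole (within 1e-06) in 22 of 22 libraries and those of Fgfr1 in 15.

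Expected counts were rounded, giving 26.43 to 38.34 M per library in E196K/E196K, 24.45 to 37.44 M in E196K/+ and 29.22 to 42.81 M in WT. Genes were filtered with filterByExpr, scaled by TMM and fitted over all 22 libraries with edgeR 4.0.16 (quasi-likelihood, robust, R 4.3.3), which tested 16974 genes with Benjamini-Hochberg adjustment over all of them. SEs and 95% intervals were derived from each p-value, since edgeR bounds it by counting error for genes that vary no more than counting alone would give. The script was tested on simulated counts. What the p-values measure is the spread among libraries, which may be technical. For genes that vary no more than counting alone would give, as Klb did, they reflect counting error. Alternatives used DESeq2 1.42.0, limma 3.58.1, other filters, and as covariates the title number or the level of Xist, the RNA of X inactivation. Library numbers follow accession order.

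The members, the gene lists and the rule for named genes were chosen with earlier results of these data known. The rule named the 3 members and 7 relatives, members of a list that passed, its 2 genes of smallest p, and a few regulators and targets, and the genes nearest in library order. Clone names and Y-linked genes were left out, and 1 gene that the rule named is not reported here. Sequences are RefSeq's.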

Additional observations from a re-analysis of the deposited data

Results flagged for a closer look

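In 70 groups of 6 to 10 libraries of the FGF receptor and ligand genes, 9 values stood further from their group than Dixon's 95% criterion allows. For normally spread values chance alone does so in about 1 group in 20. That rate does not hold for groups of few counts, where 1 count among libraries at 0 is always flagged. The number of flagged values is therefore not set against it. None of the 9 was of Fgf21, Klb or Fgfr1. Of these 9, 3 were in E196K/E196K library 3, the library that also held Schwann cell, fibroblast, blood and muscle markers: Lctl at 5.81 CPM (191 counts, others 0.201 to 1.03 CPM), Fgf7 at 7.60 CPM (250 counts, others 0.948 to 1.69 CPM) and Fgf4 at 2.68 CPM (88 counts, others 0). The part of those cells in these values was not tested. Fgf23 was at 0.402 CPM in E196K/+ library 4 (15 counts, others 0.105 to 0.204 CPM). Fgf10 was at 15.4 CPM in E196K/+ library 3 (others 12.4 to 13.0 CPM), and Fgf3 at 2.62 CPM in WT library 5 (others at least 3.52 CPM). The remaining values were of 1 count each, where the other libraries of the group had 0: Fgf8 and Fgf20 in E196K/E196K library 8, each at 0.0257 CPM, and Fgf4 in WT library 2, at 0.0230 CPM.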

How the results depend on the processing

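Over 32 alternative fits and the subsets of libraries, 476 of the values compared kept their direction, or their size, and their side of the threshold. Of the rest, 16 turned in direction, 12 were counts of called genes that moved, and 3, all of Fgf1, passed where the main fit did not. The Fgf21 mean in E196K/E196K stayed between 3.12 and 3.51 CPM with any library of the genotype left out. Fgfr1 and Klb passed in no fit. The sign of Klb, always within its error of 0, turned. In E196K/E196K against WT its log2 fold change was -0.02 with the title number as a covariate (-0.0191), -0.00157 with the Xist level as a covariate, and -0.06 to 0.13 with 1 library left out (-0.0586 to 0.132). In E196K/+ against WT it was -0.00862 with Xist and -0.0374 to 0.153 with 1 library left out. In E196K/E196K against E196K/+ it was 0.00704 with Xist and -0.0845 to 0.0588 with 1 library left out. Fgfr1 in E196K/+ against WT ran from -0.00406 to 0.0442 with 1 library left out. The cause was not tested. Genes called in E196K/E196K against WT numbered 16, 28 with DESeq2 and 12 to 19 with 1 library left out. In E196K/E196K against E196K/+ there were 18, 76 with DESeq2, 11 with limma on log2 TPM at a pseudocount of 1 and also of 0.1, 10 with the title number as a covariate, and 10 to 39 with 1 library left out (39 without E196K/E196K library 10, 10 without E196K/+ library 3, 11 without E196K/E196K library 1 and 11 without library 4). Over the 6 FGF lists in E196K/E196K against WT 1 gene was called, Fgf21, and 2 with DESeq2, with Xist as a covariate and in the range of 1 to 2 with 1 library left out (2 without E196K/E196K library 5). The second was Fgf1 in each, with adjusted p-values of 0.00912, 0.0498 and 0.0326. Fgf21 was chosen by its difference in this same comparison, so its call was fixed in advance and is no test of it. Over all genes tested, 0.0943% were called in the main fit of this comparison. No paired analysis was possible because the library numbers follow accession order and pair no samples.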
